A study of Mus musculus with 22 samples.

Results

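Intergenic footprints are stretches of the mouse genome where RNA bound to hnRNP A1 was recovered from spinal cord although 1 annotation, GENCODE, places no gene there. They were chosen as the footprints of the 10 hnRNP A1 immunoprecipitation lists that lay on chromosomes 1 to 19 and X and overlapped no gene span of the GENCODE annotation of GRCm38, whatever the type of gene. In all, 10256 of 135346 footprints met this rule, and 3078 of these lay in a gene span of another annotation, RefSeq. Each list came from the spinal cord of 1 female wild-type C57Bl/6 mouse after UV crosslinking and immunoprecipitation with the anti-hnRNP A1 antibody, followed by sequencing (CLIPseq). The 3 naïve mice were untreated and healthy. The other 7 had experimental autoimmune encephalomyelitis (EAE), a model of multiple sclerosis induced by immunization with the myelin peptide MOG(35-55), given with complete Freund's adjuvant and pertussis toxin, and were taken 15 days after the first clinical signs. Immunization was at 12 weeks of age by one label and at 8 weeks by another. The mild EAE group held mice 3, 4 and 7, with clinical scores of 1.5, 1.5 and 1.0, and the severe EAE group held mice 1, 2, 5 and 6, with scores of 2.5, 3.0, 2.5 and 3.0. The lists give positions only, so the reads behind a footprint and the strand of its RNA are unknown. Severe EAE mice 1, 2 and 6 had short lists of 2644, 204 and 659 footprints, against 9691 to 31723 in the other 7 mice, so the group comparisons are also given without them where that moved the value or the call. Matched inputs and pooled IgG controls were not analysed here.

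hnRNP A1 is an abundant nuclear RNA-binding protein that regulates splicing and binds RNA motifs built around UAG, read as TAG in DNA. RNA from outside annotated genes can come from transcription that runs past the end of a gene, from unannotated exons or whole transcripts, and from transposable elements and other repeats. A repeat also poses a placement problem, because RNA from one copy can align to another.

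Sequences stand here first for the regions on which the results turn. The first set comes from regions dense in TAG whose sequence occurs once in the genome, each footprinted in 6 or 7 mice. Each stretch below is the part covered in the most mice, read from the plus strand of GRCm38, with TAG and its reverse complement CTA in capitals.
downstream of Mbnl2, chr14:120432007-120432101: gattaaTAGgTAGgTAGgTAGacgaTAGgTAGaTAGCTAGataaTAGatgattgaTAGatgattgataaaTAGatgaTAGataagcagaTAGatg
downstream of Eipr1, chr12:28874359-28874428: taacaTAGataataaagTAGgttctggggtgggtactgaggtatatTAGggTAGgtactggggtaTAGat
downstream of Gm43206, chr3:34686124-34686240: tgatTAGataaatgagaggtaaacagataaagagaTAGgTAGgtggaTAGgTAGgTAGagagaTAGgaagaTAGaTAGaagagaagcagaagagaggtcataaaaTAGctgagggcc
downstream of Manbal, chr2:157402320-157402462: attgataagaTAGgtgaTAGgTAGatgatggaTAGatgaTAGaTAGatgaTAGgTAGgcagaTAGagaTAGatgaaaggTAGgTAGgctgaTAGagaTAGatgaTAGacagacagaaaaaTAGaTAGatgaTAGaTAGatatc
upstream of Mir344f, chr7:62047199-62047304: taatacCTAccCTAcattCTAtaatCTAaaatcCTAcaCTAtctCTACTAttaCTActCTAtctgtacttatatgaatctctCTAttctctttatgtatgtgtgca
upstream of Gm47180, chr9:124330270-124330412: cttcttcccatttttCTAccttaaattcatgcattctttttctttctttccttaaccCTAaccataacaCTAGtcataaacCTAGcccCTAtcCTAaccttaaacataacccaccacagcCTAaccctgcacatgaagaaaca

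The second set comes from regions footprinted in 8 or 9 mice within an array of zinc finger genes on chromosome 2, whose sequence occurs many times. The printed stretches are shorter than these regions and were covered in 6, 5, 6 and 7 mice, in the order given. The stretches upstream of Gm14416 and Gm11008 hold the same letters. TAG and CTA are again in capitals.
upstream of Gm14416, chr2:177136663-177136760: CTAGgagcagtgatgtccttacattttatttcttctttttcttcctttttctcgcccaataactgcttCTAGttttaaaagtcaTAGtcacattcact
upstream of Gm11008, chr2:176095453-176095550: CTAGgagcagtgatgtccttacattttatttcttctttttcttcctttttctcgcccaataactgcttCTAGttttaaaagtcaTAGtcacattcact
upstream of Gm14421, chr2:177058759-177058873: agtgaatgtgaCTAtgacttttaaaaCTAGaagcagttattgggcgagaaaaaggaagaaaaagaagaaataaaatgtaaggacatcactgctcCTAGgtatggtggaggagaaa
downstream of Zfp966, chr2:175911976-175912132: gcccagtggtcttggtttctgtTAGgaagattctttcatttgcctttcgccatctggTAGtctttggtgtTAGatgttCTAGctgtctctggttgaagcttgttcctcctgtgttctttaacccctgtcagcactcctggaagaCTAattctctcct

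The number of intergenic footprints spanned a wide range. With the mice of a group always in the order given above and the naïve mice as 1, 2 and 3, there were 1556, 1597 and 1363 in the naïve mice, 763, 874 and 1628 in mild EAE, and 363, 34, 2015 and 63 in severe EAE. Severe EAE mouse 5 had the most of all and severe EAE mouse 2 the fewest, so the severe group spanned the naïve values. In spinal cord as a whole, fewer cells of a type and less RNA per cell cannot be told apart. As a share of a mouse's footprints, the naïve mice had 9.16%, 9.21% and 7.84%, the mild EAE mice 5.29%, 9.02% and 6.70%, and the severe EAE mice 13.7%, 16.7%, 6.35% and 9.56%. The highest share had the widest 95% Wilson interval, 12.2% to 22.4% on the 34 footprints of severe EAE mouse 2, while the interval of severe EAE mouse 5 was 6.09% to 6.63%. These intervals cover counting error only. Intergenic sequence made up 52.7% of the genome without gaps and a mean of 9.35% ± 3.46 (SD, n = 10) of footprints.

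Intergenic footprints differed from those inside genes of the same mouse, and less so from intronic ones. The rule keeps annotated exons out of the intergenic class, so the contrast in splice-site borders is partly set by that choice. Their median length was 146 nt ± 10.2 (SD, n = 10) against 117 nt ± 9.94, longer in 10 of 10 mice by a mean of 28.7 nt (exact sign-flip permutation test over mice, two-sided, adjusted p = 0.00244). Only 1.02% ± 0.761 had the dinucleotides of splice sites at both borders, against 9.58% ± 4.47 inside genes, lower in 10 of 10 mice (exact permutation, adjusted p = 0.00244), which amounted to 138 intergenic footprints. Their GC share was 45.1% ± 1.94 against 50.3% ± 1.81, lower in 10 of 10 mice (exact permutation, adjusted p = 0.00244). Against intronic footprints alone, the difference in length was 5.15 nt (exact permutation p = 0.0234), the splice-border share differed by −0.347 percentage points (exact permutation p = 0.215) and the GC share by 0.718 (exact permutation p = 0.205).

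Distance to the nearest gene set intergenic footprints apart from intergenic sequence at large. Footprints within 5 kb beyond a gene's end made up 22.9% ± 4.84 (SD, n = 10), against 10.2% of intergenic bases, higher in 10 of 10 mice (exact sign-flip permutation test, adjusted p = 0.00195, the smallest it can give). The excess was largest next to the gene. Up to 1 kb beyond the end lay 6.30%, 6.01% and 7.48% of the footprints of the naïve mice, 9.57%, 3.66% and 8.78% of those of the mild EAE mice, and 9.92%, 0%, 8.24% and 11.1% of those of the severe EAE mice, against 2.52% of intergenic bases. The mean was 7.11% ± 3.31, or 2.82 times the genome's share, and the 0 of 34 in severe EAE mouse 2 allows a share of up to 8.82%. From 1 to 5 kb the ratio was 2.06, from 5 to 10 kb 1.45 and from 10 to 50 kb 0.791. Footprints whose sequence occurs once in the genome (single-copy, defined below) had mean shares of 9.67% ± 6.93 up to 1 kb. Their mean was 25.9% ± 17.7 from 1 to 5 kb. From 5 to 10 kb it was 4.97% ± 3.88, against 6.57% of intergenic bases. These means weigh all mice alike, among them severe EAE mice 2 and 6 with 2 and 6 single-copy footprints.

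Before the starts of genes the excess was smaller. Within 5 kb upstream lay 15.0% ± 2.52 of footprints against 9.85% of intergenic bases, higher in 10 of 10 mice (exact permutation, adjusted p = 0.00195). Without the zinc finger array on chromosome 2 this difference fell from 5.12 to 2.52 percentage points (exact permutation p = 0.0996), while that downstream was 8.26 (exact permutation p = 0.00586). Footprints over 50 kb from any gene were the scarcer class, at 11.9% ± 2.62 against 26.8% of intergenic bases, lower in 10 of 10 mice (exact permutation, adjusted p = 0.00195). Without severe EAE mice 1, 2 and 6, the within-mouse differences against footprints inside genes and against intergenic sequence held their direction in the remaining 7 mice, each at the smallest p the exact permutation test then allows (0.0156). The median distance to the nearest gene was 4966 nt to 17300 nt across the mice.

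**Figure D1:**
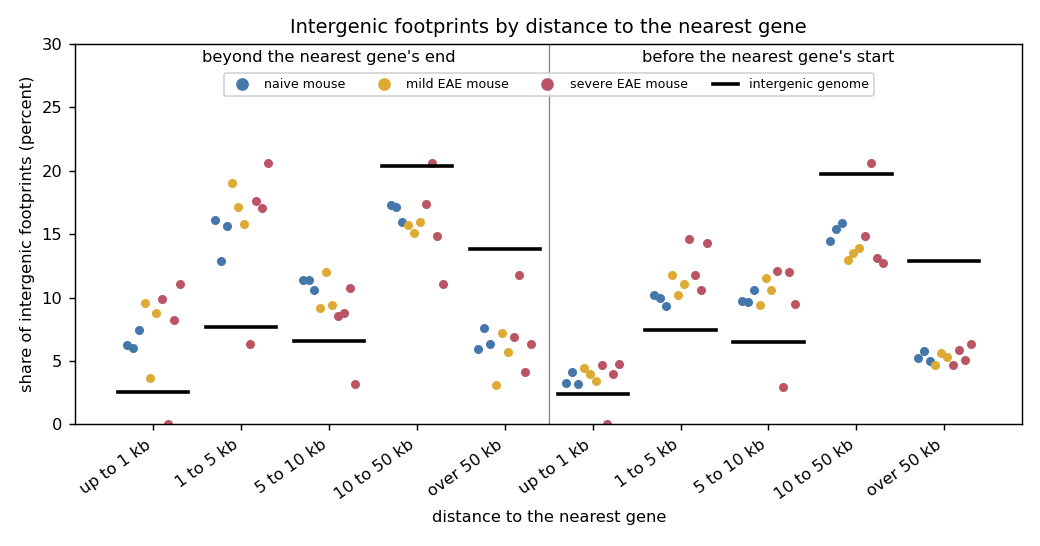
Share of each mouse's intergenic footprints (percent, vertical axis) by distance to the nearest gene in kb (horizontal axis), beyond its end on the left and before its start on the right, with 1 point per mouse coloured by group and a black line for the share of intergenic bases at that distance. Points lie above the line up to 10 kb on both sides in most mice, with means of 2.82 times the line up to 1 kb beyond a gene end, and below it over 50 kb away in all 10 mice. The mean of single-copy footprints alone, not drawn, was below the line from 5 to 10 kb, at 4.97% beyond ends and 5.70% before starts.

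The genes next to footprints were often footprinted themselves. Among footprints within 5 kb beyond the end of a protein-coding gene, the share whose gene also had a footprint inside it in the same mouse was 74.3%, 61.9% and 68.5% in the naïve mice, 79.0%, 69.5% and 81.1% in the mild EAE mice, and 11.1%, 75%, 78.3% and 0% in the severe EAE mice. The severe values rest on 18, 4, 290 and 9 such footprints, too few in mice 2 and 6 to set a limit. Of all protein-coding genes, 0.492% to 29.8% had a footprint inside in a mouse, and the share next to downstream footprints was above that in 9 of 10 mice, the exception being severe EAE mouse 6. It was above the share for upstream footprints in 7 of the mice. Severe EAE mouse 1 went the other way (11.1% against 32.3%), mouse 6 had 0% in both, and mouse 2 had no upstream footprint. For single-copy footprints alone the downstream share was 52.1%, 62.5% and 62.8% in the naïve mice and 71.4%, 40% and 70% in the mild EAE mice. In the severe EAE mice it was 10%, 100%, 68.6% and 0%, on 10, 1, 102 and 3 footprints. By type of the nearest gene, 41.6% of intergenic footprints lay nearest to a protein-coding gene, which make up 40.4% of genes, and 13.2% nearest to an unprocessed pseudogene, which make up 3.63%. The share of intergenic bases nearest to each type was not measured. Of the 1358 footprints nearest to an unprocessed pseudogene, 83, 79, 75 and 74 were at Gm1980, Gm14387, Gm14405 and Gm14421 of the array on chromosome 2.

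Most intergenic footprints lay in repeated sequence. Lower-case letters in the reference, which mark interspersed and simple repeats, made up 68.4% ± 4.38 (SD, n = 10) of their bases, against 22.0% ± 4.27 inside genes and 39.9% of intergenic bases, higher in 10 of 10 mice in both comparisons (exact sign-flip permutation, adjusted p = 0.00244 and 0.00195). Against intronic footprints alone the difference was 18.8 percentage points in place of 46.5 (exact permutation p = 0.00195). The naïve mice had 65.0%, 66.7% and 68.9%, the mild EAE mice 67.4%, 71.7% and 70.7%, and the severe EAE mice 78.7%, 64.2%, 66.2% and 64.9%. The groups overlapped, with severe EAE mouse 1 above all the others. Among footprints over 50 kb from a gene the share reached 86.2%, and within 5 kb beyond a gene end it was 57.7%.

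The number of genome copies was read from words of 31 nt: each footprint's copies are the median number of times its words occur in the genome. By this count 2336 footprints were single-copy, 2842 had 2 to 9 copies, 3350 had 10 to 99 and 1614 had 100 or more, while 114 were too short to hold a word. Single-copy footprints made up 18.3% ± 8.83 of a mouse's intergenic footprints and 77.6% ± 15.7 of those inside genes, lower in 10 of 10 mice (exact permutation, p = 0.00195). Single-copy intergenic footprints had 43.6% of their bases in lower case, though the choice by copies itself removes repeated sequence, so no comparison with the whole intergenic genome is drawn from it. This split by copies was added after the data were seen. A footprint counted as single-copy when its median was below 1.5, which does not ensure its placement. On chromosome Y, outside the footprints used here, 30 footprints of these female mice were single-copy by the same count.

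**Figure D2:**
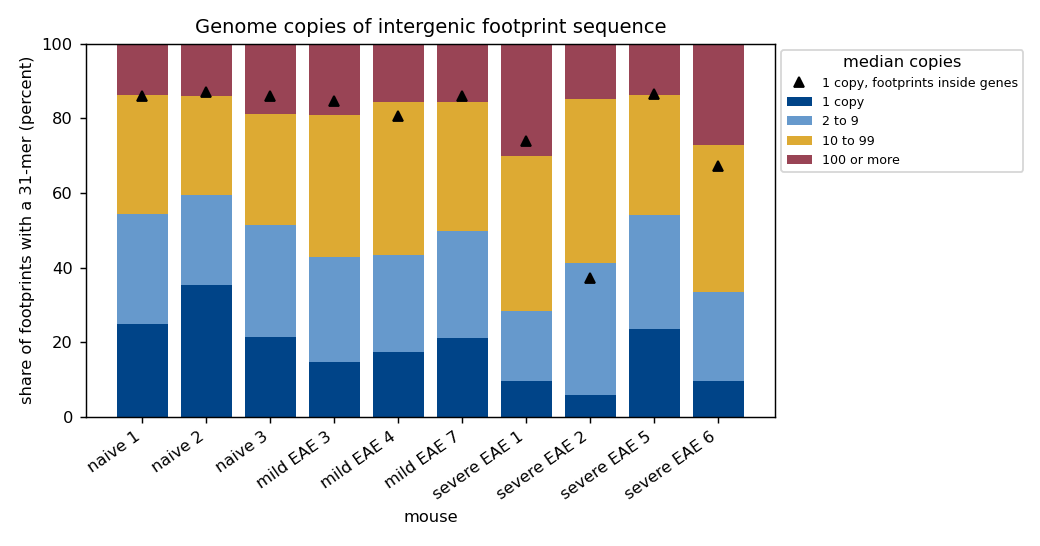
Genome copies of the intergenic footprints of each mouse (horizontal axis) as stacked shares of those that hold a 31-nt word (percent, vertical axis), with triangles for the single-copy share of footprints inside genes. The single-copy block reaches 5.88% to 35.4% and lies below the triangle, at 37.1% to 87.1%, in all 10 mice.

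Many intergenic footprints matched annotated transcripts in sequence. In all, 5138 footprints (50.1%) matched an annotated transcript at 90% identity or more over at least 50% of their length, and 12.3% of the single-copy ones did. Per mouse the share ran from 43.8% in naïve mouse 2 to 82.5% in severe EAE mouse 6. Protein-coding transcripts were the match of 1577 footprints and lincRNAs of 1066, and 2 footprints, both in severe EAE mouse 2, matched the mitochondrial genome. The transcript matched most often was D10Wsu102e, with 144 footprints in 8 mice. A match can come from a repeat element that both hold, and the share in other intergenic sequence was not measured. Tandem repeats of units up to 6 nt over at least 20 nt were found in 274 footprints.

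More listed intergenic footprints lay in 1 stretch of chromosome 2 than in any other cluster. The region chr2:174961909-178101185 held 2252 of them (22.0%) from all 10 mice, among 87 genes of which 45 are protein-coding and 40 are pseudogenes. The 10 genes with zinc finger (Zfp) names among them belong to a family of DNA-binding proteins with repeated fingers, many of which repress transposable elements. The share of a mouse's intergenic footprints in the array was 24.7%, 16.6% and 20.2% in the naïve mice, 32.8%, 28.8% and 19.9% in the mild EAE mice, and 13.2%, 32.4%, 21.8% and 4.76% in the severe EAE mice. The groups overlapped, and the lowest value rests on 3 of the 63 footprints of severe EAE mouse 6. Footprints in the array had a median of 15 copies, and 2.16% of them were single-copy. The same recovered sequence may be listed at several of its copies. Counts and shares of multi-copy footprints, clusters and regions therefore need not stand for separate sites. How often this occurred was not measured.

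Within the array, single genes had footprints beyond their end in nearly every mouse. Zfp965 was followed within 10 kb by 45 footprints in 10 of 10 mice, which covered 600, 819 and 1072 nt in the naïve mice, 1045, 1465 and 2285 nt in the mild EAE mice, and 128, 96, 1940 and 155 nt in the severe EAE mice. All 45 lay in gene spans of RefSeq, a second annotation. Gm14440 had 41, Gm11007 had 37 and Gm14435 had 37, each in 9 mice and none of them single-copy. The 5 further genes that led by mice, Zfp971, Zfp967, Zfp966, Gm14288 and Gm14295, had 40 to 51 footprints in 8 mice each and are in the same array. Upstream, the leading genes were the pseudogenes Gm14387, Gm14421, Gm14405 and Gm1980 of the array, with 57 to 61 footprints in 8 or 9 mice, and 4930467E23Rik on chromosome 8, with 40 in 7 mice.

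Of the 10 regions found in the most mice, 5 had an identical partner among the 10. Footprints of all mice were merged into regions, and 5 intergenic regions held 9 mice, in each case all but severe EAE mouse 6. Of these 5, 3 lay in the array and 2 on chromosome 4, at chr4:42185556-42186537 and chr4:42682715-42683696. The pair on chromosome 4 was identical over its 982 nt, and its covered lengths were the same in every mouse: 220, 360 and 449 nt in the naïve mice, 177, 450 and 833 nt in the mild EAE mice, and 214, 152, 755 and 0 nt in the severe EAE mice. In the array, the regions at chr2:175293185-175294939 near Gm14440, chr2:175911051-175912805 near Zfp966 and chr2:175683649-175685403 near Zfp969 were identical over 1755 nt, the first on the opposite strand to the other two. Footprints at such places do not show which copy was transcribed.

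A further 7 dense clusters brought the total to 3609 footprints (35.2%) in 8 clusters of at least 100 footprints with gaps under 150 kb. On chromosome 4, 337 footprints lay at chr4:41805026-42450202 among copies of Fam205a and the chemokine gene Ccl21b, and 126 at chr4:42650951-42913908, both in 9 mice. On chromosome 5, 257 lay at chr5:25916900-26270378 around Speer4a in 7 mice. A pair of clusters on chromosome 8 held 171 and 169 in 9 mice each. These 5 had median copy numbers of 6 to 7. The remaining pair, on chromosomes 16 and X, had a median of 1 copy.

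Single-copy footprints, whose placement is less ambiguous though not assured, also gathered in dense domains. There were 17 domains of at least 20 single-copy footprints, which held 707 of the 2336 (30.3%). The 2 with the most footprints, on chromosomes 16 and X, lie in the pair of clusters just named, and 1 further domain, around Zfp931, lies at the edge of the array on chromosome 2. The domain with the most footprints was chr16:74431270-75388502, with 44, 17 and 23 footprints in the naïve mice, 1, 6 and 19 in the mild EAE mice, and 2, 0, 27 and 0 in the severe EAE mice. All 139 lay inside RefSeq gene spans, among them Robo2, a receptor for Slit proteins in axon guidance. The next was chrX:105166107-105346073, where the nearest gene was most often E530001F21Rik, for 51 footprints, and Mir384, a microRNA, for 21. It held 34, 12 and 13 in the naïve mice, 0, 11 and 29 in the mild EAE mice, and 0, 0, 35 and 0 in the severe EAE mice. In both, mild EAE mouse 3 and severe EAE mice 1, 2 and 6 had 2 or fewer, mild EAE mouse 4 lay below the naïve mice, and mild EAE mouse 7 and severe EAE mouse 5 lay at or above 19.

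Several domains lay at named genes and held footprints of 8 or 9 mice. At chr11:55505456-55674610, beyond the end of G3bp1, a core protein of stress granules, and around Glra1, a subunit of the inhibitory glycine receptor of spinal cord, there were 8, 3 and 7 single-copy footprints in the naïve mice, 3, 3 and 6 in the mild EAE mice, and 1, 0, 20 and 1 in the severe EAE mice, with none of the 52 in a RefSeq gene span. Within 10 kb beyond the end of G3bp1, all 28 footprints were single-copy and lay 618 to 4418 nt away, covering 1245, 136 and 443 nt in the naïve mice, 134, 153 and 615 nt in the mild EAE mice, and 131, 0, 1873 and 147 nt in the severe EAE mice. It was the only one of the 10 genes with downstream footprints in the most mice that lay outside the array.

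Around Kcna1, a voltage-gated potassium channel of axons, the domain chr6:126561210-126746597 held 8, 4 and 6 in the naïve mice, 2, 2 and 10 in the mild EAE mice, and 2, 0, 14 and 1 in the severe EAE mice. Of these 49, 30 lay in RefSeq gene spans. Beyond the end of the kinase gene Hipk2, chr6:38688138-38694196 held 27 in 8 mice, all inside the longer RefSeq span of Hipk2. Footprints in the domains on chromosome 1 near Dpp10, chromosome 16 near Robo1 and chromosome 5 near Abcb1a, a drug efflux transporter of brain vessels, were likewise all inside RefSeq spans (25, 24 and 21). At chr12:109572481-109726167, a cluster of small RNA genes that includes Mir493, there were 24 in 7 mice, 10 of them within 10 kb upstream of Mir493. Over all intergenic footprints 3078 lay in a RefSeq gene span and 1034 overlapped a RefSeq exon.

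**Figure D3:**
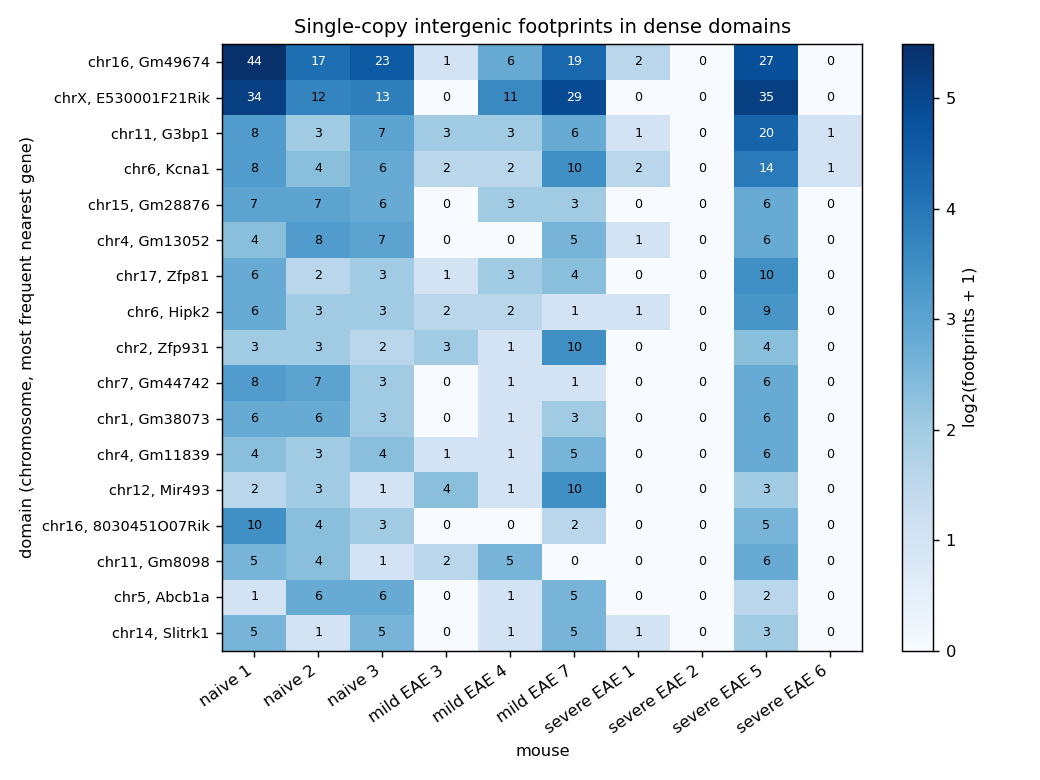
Number of single-copy intergenic footprints (printed, colour on a log2(count + 1) scale) in each of the 17 dense domains (vertical axis, by chromosome and most frequent nearest gene) for each mouse (horizontal axis). The domains on chromosomes 16 and X hold 139 and 134 footprints, and the columns of severe EAE mice 2 and 6 are at 0 or 1 throughout.

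The letters TAG were counted on both strands of each footprint and set against their density in equally long windows placed 200 nt to either side. The log2 ratio was 0.11 ± 0.12 (SD, n = 10) in intergenic footprints and −0.18 ± 0.13 inside genes, higher in 9 of 10 mice (exact sign-flip permutation, adjusted p = 0.00391), with severe EAE mouse 6 the exception. Against intronic footprints alone the difference turned to −0.23 (exact permutation p = 0.00977). The ratio was higher in single-copy than in multi-copy intergenic footprints in 7 of 7 mice with at least 100 single-copy ones, where it spanned −0.04 to 0.85 against −0.06 to 0.09.

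Single-copy footprints included stretches packed with TAG. A footprint of at least 50 nt was called TAG-dense when 1 strand held 5 or more TAG per 100 nt, where 4 equally frequent letters would give 1.56. Among single-copy intergenic footprints the dense share was 16.4%, 1.98% and 21.7% in the naïve mice, 38.1%, 16.4% and 9.04% in the mild EAE mice, and 6.06%, 0%, 7.39% and 0% in the severe EAE mice, the last being 0 of 2 and 0 of 6 footprints in severe EAE mice 2 and 6. Naïve mouse 2 stood well below the other naïve mice. In the flanks of the same footprints the share was 3.70%, 0.809% and 4.27%, then 9.05%, 3.42% and 2.11%, then 0%, 0%, 1.74% and 0%. The mean was 11.7% ± 11.9 (SD, n = 10) against 2.51% ± 2.80 in flanks, higher in 8 of 10 mice (exact sign-flip permutation, p = 0.00781, adjusted over 5 comparisons p = 0.0195), with both values at 0 in severe EAE mice 2 and 6.

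Against single-copy footprints inside genes, with a mean of 3.73% ± 2.73, the dense share was higher in 8 of 10 mice (exact permutation, adjusted p = 0.0547). In the 7 mice with at least 100 single-copy intergenic footprints it was higher in 7 of 7, at 15.9% ± 11.8 against 3.28% ± 1.54 (exact permutation, adjusted p = 0.0195). Multi-copy intergenic footprints reached 2.45% ± 1.02 against 0.866% ± 0.415 in flanks (exact permutation, adjusted p = 0.00977). The EAE and naïve mice did not differ in the single-copy dense share beyond their spread (difference −2.36 percentage points, exact permutation p = 0.817). The definition of TAG-dense was set after the data were seen, so these tests describe the data they were drawn from.

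The more mice held a single-copy region, the more often it was TAG-dense. Of single-copy intergenic regions of at least 50 nt, 60 of 1503 were dense among those in 1 mouse (3.99%), 18 of 160 in 2 mice (11.3%), 17 of 60 in 3 mice (28.3%), 6 of 26 in 4 mice (23.1%) and 13 of 23 in 5 to 7 mice (56.5%). The 95% Wilson interval of the last was 36.8% to 74.4%, and that of the first 3.11% to 5.10%, while the intervals for 3 and 4 mice overlapped. Among multi-copy regions the share was 1.66%, 2.45%, 2.75% and 3.70% in 1, 2, 3 and 4 mice, and 1 of 111 (0.901%) in 5 or more. Of 447509 windows of 150 nt laid over intergenic sequence, 0.555% were TAG-dense.

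**Figure D4:**
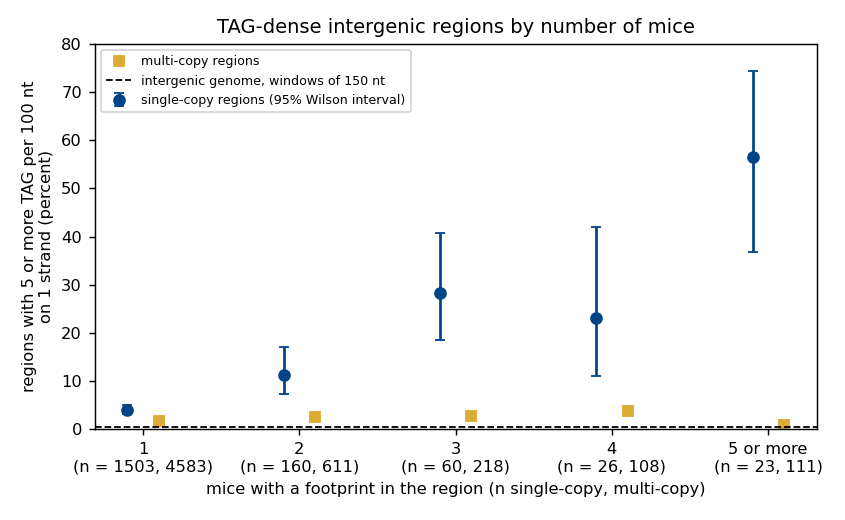
Share of merged intergenic regions with 5 or more TAG per 100 nt on 1 strand (percent, vertical axis) by the number of mice with a footprint in the region (horizontal axis, numbers of regions in brackets), for single-copy regions (circles, with 95% Wilson intervals) and multi-copy regions (squares), with a dashed line for windows of intergenic sequence. Single-copy regions go from 3.99% in 1 mouse to 56.5% in 5 or more, and multi-copy regions lie between 0.901% and 3.70%.

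The regions printed at the top are among the TAG-dense ones found in the most mice. Not printed are chr11:55674454-55674610, 66256 nt upstream of Glra1, and chr7:140804728-140804938, 2511 nt beyond Zfp941. Each was found in 6 mice, with 10.2 and 8.06 TAG per 100 nt. At chr14:120431939-120432170, which starts 242 nt beyond the end of Mbnl2, a splicing regulator of the muscleblind family, 7 mice had footprints, with 227, 144 and 227 nt covered in the naïve mice, 228, 228 and 232 nt in the mild EAE mice, and 133, 0, 0 and 0 nt in the severe EAE mice. The region held 16.8 TAG per 100 nt on the strand of Mbnl2. At chr12:28874169-28874565, 4304 nt beyond Eipr1, the covered lengths were 207, 130 and 236 nt in the naïve mice, 136, 183 and 275 nt in the mild EAE mice, and 0, 0, 227 and 0 nt in the severe EAE mice, with 7.56 TAG per 100 nt. In both, all 3 naïve and all 3 mild EAE mice had footprints and 1 of 4 severe EAE mice did.

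At chr9:124330229-124330661, 8318 nt upstream of Gm47180, naïve mouse 2 had none and 2 of 4 severe EAE mice, 1 and 5, had footprints. As at Mbnl2 and Eipr1, all naïve and mild EAE mice had footprints at chr7:62047174-62047317, 926 nt upstream of the microRNA Mir344f, and at chr3:34686079-34686251, 3333 nt beyond Gm43206, where severe EAE mouse 5 was the severe one. At chr2:157402259-157402678, 5496 nt beyond Manbal, naïve mice 1 and 3, the 3 mild EAE mice and severe EAE mouse 5 had footprints over 11.7 TAG per 100 nt. Severe EAE mice 2 and 6 had footprints in none of these regions and had 2 and 6 single-copy intergenic footprints in all.

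In all, 114 single-copy regions were TAG-dense, of which 54 were found in at least 2 mice. Naïve and EAE mice shared 43, 47 were in naïve mice only and 24 in EAE mice only. The same split of all single-copy regions was not counted, so these numbers do not compare the groups. A naïve mouse had 289 to 560 single-copy intergenic footprints and an EAE mouse 2 to 466. Of the 41 within 10 kb beyond a gene end, 32 had their TAG on the strand of that gene, while of the 22 within 10 kb upstream 10 did. On the TAG-rich strand of these regions, the letter after TAG was A in 53.0% of 2000 TAG and C in 3.95%. On both strands of other single-copy regions the shares were 36.7% and 16.4%. The strands counted differ, and the choice of dense regions can itself shape these shares, so they are description only. Lower-case letters made up a mean of 48.8% of the dense regions.

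Sharing of footprints between mice was lower outside genes. An intergenic footprint overlapped one of another mouse by at least 2 nt in 43.3%, 23.5% and 39.7% of cases in the naïve mice, 47.8%, 51.4% and 40.6% in the mild EAE mice, and 37.7%, 55.9%, 36.5% and 52.4% in the severe EAE mice. Inside genes the share was 38.4% to 77.0% and was higher in 10 of 10 mice. Naïve mouse 2 shared least in both classes. Since each value uses the lists of all mice, no test was made. By sequence, 36.0% to 85.7% of a mouse's intergenic footprints had at least 50% of their 31-nt words in the intergenic footprints of the other mice, pooled, more than by position in 10 of 10 mice. The excess lay in multi-copy footprints, with a mean of 67.0% by sequence against 43.4% by position. Among single-copy footprints the means were 37.1% and 41.4%.

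**Figure D5:**
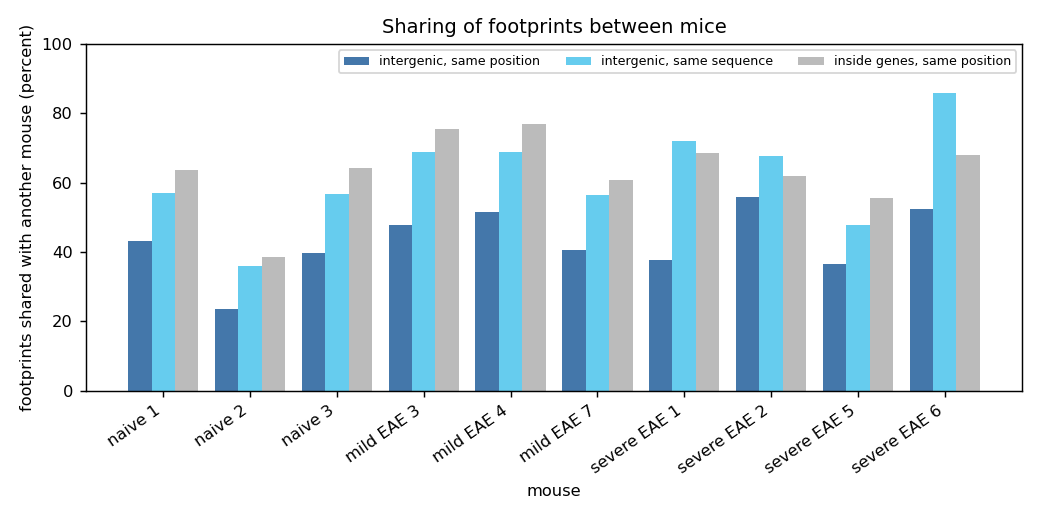
Share of each mouse's footprints (percent, vertical axis) that another mouse shared, for intergenic footprints by position and by sequence and for footprints inside genes by position. Intergenic bars by position, 23.5% to 55.9%, are below those inside genes in all 10 mice, and bars by sequence, 36.0% to 85.7%, are above those by position.

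Merged over mice, the lists gave 7588 intergenic regions. Of these 6263 (82.5%) came from 1 mouse, against 66.7% of regions inside genes, 1325 from at least 2 mice, 134 from at least 5 and 0 from all 10. Single-copy regions came from 1 mouse in 84.9% of cases.

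Regions footprinted in mice of 1 group and in none of another were counted among intergenic regions and among all 81739 regions. The first 2 classes below set no condition on the mild EAE mice. Footprints in at least 2 naïve and no severe EAE mice marked 200 intergenic regions (2.64%), beside 3.9% of all regions. In at least 2 severe EAE and no naïve mice there were 39 (0.514%), beside 0.811%. All 3 naïve and no EAE mice held 10 (0.132%), beside 0.246%, and at least 3 EAE and no naïve mice held 52 (0.685%), beside 2.87%. Each class needs 2 or 3 mice, and intergenic regions came from 1 mouse more often. Among regions in at least as many mice as the class needs, the intergenic and overall shares were 15.1% and 12.2%, 2.94% and 2.55%, 1.82% and 1.52%, and 9.49% and 17.8%. No test was made of these shares. Among the 1805 single-copy intergenic regions the counts were 53, 1, 3 and 6. Without severe EAE mouse 5 the 2 naïve counts rose to 361 and 16 and the 2 EAE counts fell to 5 and 19. Without naïve mouse 1, 2 or 3 the first count was 54, 111 or 78, without severe EAE mouse 1 the second was 11, and the last was 80 without naïve mouse 1, 22 without mild EAE mouse 4 and 18 without mild EAE mouse 7.

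The stretches printed here come from some of the 5 leading regions in naïve mice only and in EAE mice only. They were not taken in order of covered nucleotides and do not compare the groups. The naïve-only region with the most, chr2:176542206-176542701 with 850 nt, is not printed, and its stretch held 2 TAG and 3 CTA. TAG-dense regions also occurred in EAE mice only, as at chr13:47834234-47834421, with 14.4 TAG per 100 nt in the 3 mild EAE mice. The stretches covered in the most mice are printed from the plus strand of GRCm38 with TAG and CTA in capitals.
naïve only, upstream of Eqtn, chr4:94931016-94931145: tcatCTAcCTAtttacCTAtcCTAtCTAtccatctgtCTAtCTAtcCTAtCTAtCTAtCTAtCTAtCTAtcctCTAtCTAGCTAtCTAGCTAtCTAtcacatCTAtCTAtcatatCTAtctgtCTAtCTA
naïve only, downstream of 6330411D24Rik, chr4:142553378-142553481: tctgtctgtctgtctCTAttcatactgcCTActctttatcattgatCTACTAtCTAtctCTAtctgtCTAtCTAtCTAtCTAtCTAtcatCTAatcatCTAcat
naïve only, downstream of Gm11007, chr2:175662898-175663015: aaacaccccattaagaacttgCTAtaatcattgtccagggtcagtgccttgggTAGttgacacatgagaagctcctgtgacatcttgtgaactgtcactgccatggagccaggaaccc
EAE only, upstream of Dhx40, chr11:86814958-86815021: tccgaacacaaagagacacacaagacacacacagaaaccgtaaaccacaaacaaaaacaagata
EAE only, downstream of Gm2808, chr17:6508328-6508370: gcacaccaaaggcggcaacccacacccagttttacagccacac
EAE only, upstream of Gm40513, chr9:41909137-41909242: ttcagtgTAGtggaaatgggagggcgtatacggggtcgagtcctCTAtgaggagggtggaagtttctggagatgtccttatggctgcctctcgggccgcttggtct

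Of the 5 leading regions in naïve mice only, 3 lay in the zinc finger array and 2 were single-copy. At chr4:94930981-94931182, 2138 nt upstream of Eqtn, the naïve mice had 171, 130 and 202 nt covered, and the printed stretch held 24 CTA. At chr4:142553353-142553552 they had 196, 104 and 200 nt, and the stretch held 13 CTA. Of the 5 leading regions in EAE mice only, none was single-copy. At chr11:86814885-86815117, 7139 nt upstream of Dhx40, mild EAE mice 3 and 4 had 165 and 121 nt covered and severe EAE mice 1, 5 and 6 had 160, 177 and 137 nt. A second region, chr13:55185656-55185888, held the same 233 nt on the opposite strand and the same covered lengths. At chr17:6508253-6508482, 3309 nt beyond Gm2808, with 3 copies and no lower-case letters, mild EAE mice 3 and 7 had 185 and 155 nt and severe EAE mice 2, 5 and 6 had 107, 117 and 133 nt.

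No measure of intergenic footprints differed between EAE and naïve mice after adjustment. Each of 9 measures was compared by a two-sided exact permutation test, which with 7 against 3 mice can reach p = 0.00833, and 0 of the 9 had an unadjusted p under 0.05. The number of intergenic footprints was 820 ± 762 (SD, n = 7) in EAE and 1505 ± 125 (SD, n = 3) in naïve mice, a difference of −685 (exact permutation p = 0.158, adjusted p = 1). Without severe EAE mice 1, 2 and 6 the difference was −185 (exact permutation p = 0.629). The share of footprints differed by 0.88 percentage points (exact permutation p = 0.783), the share within 5 kb beyond a gene end by 2.08 (exact permutation p = 0.558) and the lower-case share by 2.27 (exact permutation p = 0.517), all with adjusted p = 1. The lowest adjusted p was 0.6 for mild EAE against naïve mice, where the test cannot go below 0.1, 0.771 for severe EAE against naïve mice and 0.686 for severe against mild EAE mice, where it cannot go below 0.0286.

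The single-copy share, a measure added after the data were seen, was lower in EAE mice. It was 24.8%, 35.4% and 21.4% in the naïve mice, 14.7%, 17.2% and 20.97% in the mild EAE mice, and 9.47%, 5.88%, 23.5% and 9.52% in the severe EAE mice. The groups overlapped through severe EAE mouse 5, and the means were 27.2% ± 7.31 and 14.5% ± 6.50, a difference of −12.8 percentage points (exact permutation p = 0.025, adjusted over 10 measures p = 0.25). Without severe EAE mice 1, 2 and 6 it was −8.13 (exact permutation p = 0.114), and without naïve mouse 2 it was −8.65 (exact permutation p = 0.139). The lists of severe EAE mice 1, 2 and 6 are also the shortest, and inside genes their single-copy share was 74.1%, 37.1% and 67.3% against 80.8% to 87.1% in the others. The part of list length in this difference was not tested.

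Marker genes of spinal cord cells and hnRNP genes were checked for footprints inside and beside them. Inside the genes, footprints were found in at least 1 mouse for 15 of 16 neuronal markers, 10 of 10 of oligodendrocytes, 8 of 8 of astrocytes, 8 of 12 of microglia and leukocytes, 5 of 5 of endothelium and 2 of 3 of Schwann cells, and for 22 of 22 hnRNP genes. That made 70 of 76 listed genes (92.1%), beside 9994 of 21755 protein-coding genes (45.9%). Chat, which makes the transmitter of motor neurons, was the neuronal marker without a footprint. Within 10 kb outside, 6 of the 76 listed genes had an intergenic footprint (7.89%), beside 852 of the protein-coding genes (3.92%). Of these, 5 had 1 footprint each: Nefh, a neurofilament subunit, 76 nt upstream in naïve mouse 2, Aqp4, the astrocyte water channel, 6335 nt downstream, Hnrnpdl 9674 nt and Hnrnpf 23 nt downstream in severe EAE mouse 5, and Cd3e, a subunit of the T-cell receptor complex, 2280 nt downstream in naïve mouse 1. With 1 mouse each, these 5 allow no comparison of groups. Over all genes, 1195 had an intergenic footprint within 10 kb beyond their end, of which 363 had one in at least 2 mice and 106 in at least 5.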

How the data were processed

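The authors demultiplexed the reads (bcl2fastq 2.19.0.316), trimmed them with fastp, built contigs per library (rnaSPAdes), placed them on GRCm38 by spliced alignment (minimap2 2.17), removed sites also seen in the matched input or pooled IgG with bedtools, and merged overlapping sites without regard to strand. The deposited lists hold a chromosome, start and end in 3 columns, positions rather than a score, signal or count, so the depth per footprint is unknown and only retained sites are listed. From 10 lists of 136207 footprints, 135346 on chromosomes 1 to 19 and X were used.

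Gene spans came from GENCODE M 21 and the letters from soft-masked GRCm38 patch 6. RefSeq served as a second annotation. Merged regions needed an overlap of at least 1 nt. Transcript matches used blastn 2.17.0, and other steps Python 3.11.15 with numpy 2.4.6, pandas 2.3.3 and numba 0.67.0. Figures used matplotlib 3.10.9. Scripts were tested on simulated data.

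The mouse was the replicate. Group means of values per mouse were set against each other by exact two-sided permutation tests, and classes of footprints within mice by exact sign-flip permutation tests, with Benjamini-Hochberg adjustment over the measures of each comparison. Regions and genes named were the 10 regions in the most mice, the 5 leading regions in naïve and in EAE mice only, the 10 genes with downstream and the 5 with upstream footprints within 10 kb, and marker lists. The members, lists and measures were chosen with earlier results of these data known. Copy number, the array and domains, single-copy rankings and TAG-dense stretches were added after seeing the data. Alternatives concerned footprint length, gene spans, annotation, masking, distance and flank limits, overlap, merging, copies, the array, a replicate block, and mice left out. The values of 1 listed gene are not reported here.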

Additional observations from a re-analysis of the deposited data

Results flagged for a closer look

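In severe EAE mouse 5 the number of intergenic footprints, 2015, lay far above the other 3 severe EAE mice (363, 34 and 63), a gap to the next mouse of 0.834 of the group's range, past the limit Dixon's test sets for 4 mice. In severe EAE mouse 1 the share of lower-case bases, 78.7%, lay far above the others of its group (64.2%, 66.2% and 64.9%), a gap of 0.862. Of 14 measures of this group these 2 passed that limit, and chance passes about 1 in 20 groups.

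Chromosome Y held 290 footprints in these female mice, 0 to 49 per mouse, of which 30 were single-copy. Sequences other than chromosomes 1 to 19, X, Y and M held 568 footprints, 1 to 98 per mouse. Neither class enters a comparison above.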

How the results depend on the processing

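Of 459 alternative values, 394 kept their direction and their side of the threshold or stayed near the main count. The causes of the changes below were not tested. Differences are EAE minus naïve, in percentage points for shares.

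For the median length, differences near 0 changed sign: −0.143 nt with footprints of at least 30 nt, −0.286 with merging within 50 nt, −3.02 with single-copy footprints and −1.38 with GENCODE and RefSeq spans. With protein-coding spans only, the lower-case share differed by −3.89, the share within 5 kb beyond a gene end by −0.259, TAG density by −0.0659 (log2) and the splice-border share by 0.196. With spans extended by 10 kb, the share over 50 kb away differed by 0.746 and TAG density by −0.000304 (log2). With footprints under 50% lower case, the intergenic share differed by −0.288, the lower-case share by −1.33, the splice-border share by 0.467 and the single-copy share by −16.98 (exact permutation p = 0.0583). A limit of 10 kb downstream gave −0.218, one of 100 kb gave 0.376, and flanks 500 nt away gave −0.0103 (log2) for TAG. With single-copy footprints only, the intergenic share differed by −1.08 and the splice-border share by 0.584. Without the array, the downstream share differed by −0.378 and the share over 50 kb by 0.382, and both annotations together gave 0.857 for the latter. Without severe EAE mice 1, 2 and 6, the number differed by −185, the intergenic share by −1.90, the splice-border share by 0.449, GC by −0.605 and the single-copy share by −8.13.

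Leaving out 1 mouse at a time gave −0.295 to 1.60 for the intergenic share, −5.43 to 4.57 nt for length, −1.11 to 0.567 for the share over 50 kb, −0.0433 to 0.0719 (log2) for TAG, −0.421 to 0.178 for splice borders, −15.7 to −8.65 for the single-copy share (weaker without naïve mice 1 or 2), and, for the classes of regions in the order of the report, 54 to 361, 5 to 51, 10 to 16 and 18 to 80. The class of all 3 naïve mice had no value without a naïve mouse, nor that of at least 2 severe mice without severe EAE mice 1, 2 and 6. Regions built from single-copy footprints alone numbered 52, 1, 3 and 7.

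Within mice, against intronic footprints, length differed by 5.15 nt, lower case by 18.8, GC differed by 0.718, TAG by −0.23 (log2) and splice borders by −0.347. Against the intergenic genome, lower case differed by 5.04 with single-copy footprints, a choice that itself removes repeats, and the upstream share by 2.52 without the array.

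Replicate numbers 1 to 3 occur in both naïve and EAE mice. In 1 of 3 pairs the naïve mouse shared most footprints with its own number, naïve mouse 3 with mild EAE mouse 3. The other EAE partners were severe EAE mice 1 and 2, whose short lists cap the share of footprints held in common. The check therefore cannot decide whether a replicate number marks a block. A replicate block over these 3 pairs, where the exact permutation p cannot go below 0.25, gave −4.33 nt for length, −0.660 for the downstream share, 0.378 for the share over 50 kb and −17.2 for the single-copy share, and 6 of 10 measures kept their direction.

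The lists give no reads per footprint, so depth limits cannot be set for single footprints, and the library depths that the study tabulates were not used here, so the part of depth in the short lists was not tested. The spliced-border, length and copy values describe assembled contigs after subtraction of input and IgG sites.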

Other observations

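Single-copy footprints lay beyond or before further genes. Beyond Glra1 there were 16 in 6 mice, 44 to 4103 nt from its end: 0, 2 and 2 in the naïve mice, 1, 1 and 2 in the mild EAE mice, and 0, 0, 8 and 0 in the severe EAE mice. Beyond Zfp931 there were 18 in 6 mice and beyond Zfp941 8 in 6 mice, both zinc finger genes, the first at the edge of the array on chromosome 2. Beyond Eef1a2, a translation elongation factor of neurons and muscle, there were 8 in 5 mice, all inside a RefSeq gene span, with none in naïve mice 1 and 2.

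Upstream, the pseudogene Gm11839 had 17 single-copy footprints in 7 mice, 4344 to 8447 nt before its start, and Mir493 had 10 in 7 mice, all inside a RefSeq gene span. Near the small nucleolar RNA gene Gm24598 on chromosome X there were 7 in 6 mice, 945 to 1173 nt beyond its end. Severe EAE mice 2 and 6 had no single-copy footprint at any of these genes.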
